A study of Mus musculus with 2 samples.

Results

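The cells described here are conventional T cells with CXCR6 transcripts, called Cxcr6 cells, from the subcutaneous adipose tissue (SAT) and the visceral adipose tissue (VAT) of mice. They were selected on their own transcript counts. A cell was taken when it had at least 500 genes, at least 1000 unique molecular identifiers (UMIs, each standing for 1 captured transcript), under 10% mitochondrial UMIs, at least 1 UMI of Trbc1 or Trbc2, no UMI of the Treg factors Foxp3 and Ikzf2, and at least 1 UMI of Cxcr6. Of 12989 cells that passed the filter on genes, UMIs and mitochondrial share, 10584 were T cells without Foxp3 and Ikzf2, and 2158 of these were Cxcr6 cells. Hashtag antibodies placed 1770 of the 2158 in a tissue sample, 798 in SAT and 655 in VAT. Because Cxcr6, Foxp3, Ikzf2 and the T cell receptor beta constant genes chose the cells, nothing is read from their levels.

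CXCR6 is the receptor of CXCL16 and is carried by effector and tissue-resident T cells, NKT cells and other lymphocytes that stay in non-lymphoid organs. Helper T cells of the Th1 type make interferon-gamma and carry the chemokine receptor CXCR3, while Th17 and Th2 cells make other cytokines. Fat holds all of these beside regulatory T cells, and subcutaneous and visceral depots differ in their stromal and immune cells. The study concerns Treg cells of brown and subcutaneous fat, and its sort also collected the conventional T cells analysed here.

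The mice were 8-week-old male wild-type C57BL/6J animals with no treatment named in the labels. Live DAPI-negative cells positive for TCR-beta, CD3 and CD4 were sorted in successive rounds from SAT, VAT, brown adipose tissue (BAT) and spleen. Fat was cut up and digested with collagenase II, spleen was dissociated mechanically, red cells were lysed, and hashed cells were pooled into 1 droplet library (10x, 3′ end counting) per experiment. Each of the 2 experiments held 2 hashed samples of each tissue, called replicates 1 and 2 in experiment 1 and replicates 3 and 4 in experiment 2. The labels do not say whether the duplicates are separate animals or pools, so the p-values measure the spread between these samples, which may be technical. They also do not name the visceral depot. SAT and VAT of an experiment shared a library, so a difference between the libraries is not a difference between these tissues.

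SAT gave 141, 110, 212 and 335 Cxcr6 cells in replicates 1 to 4, and VAT gave 150, 114, 196 and 195. Their summed UMIs ran from 783399 to 1779611 per sample, and the median cell had 5899 to 6193 UMIs in experiment 1 and 4594 to 4812 in experiment 2. In such sums, fewer cells of a type and less RNA per cell cannot be told apart. The hashtag of SAT replicate 1 was weak: its cells had a median of 14 counts of their tag, against 141 to 346 in the other SAT and VAT samples. With a margin of 4 between the top tag and the next in place of 2, 20 of its 141 cells kept a sample. Counts of called genes and the fold changes of leading genes are therefore also given without that sample. The 2 libraries shared 20 cell barcodes, 9 of them among kept cells and 0 among Cxcr6 cells.

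The sorted identity was visible in the transcripts. A Trac UMI was found in 95.5% ± 3.18 of SAT and 92.7% ± 2.86 of VAT Cxcr6 cells (SD, n = 4 samples each), and a Cd3e UMI in 90.5% ± 5.12 and 89.3% ± 8.89. A Cd4 UMI was found in 55.4% ± 6.18 and 58.9% ± 11.5, a Cd8a UMI in 1.15% ± 1.62 and 0.642% ± 0.453, and a Trdc UMI, of the T cell receptor delta chain, in 1.33% ± 1.12 and 1.49% ± 0.625. Effector markers were frequent, with Cxcr3 in 78.3% ± 3.16 of SAT and 72.9% ± 4.76 of VAT cells and Nkg7, a granule protein of cytotoxic and Th1 cells, in 83.4% ± 2.29 and 75.8% ± 3.35. The naive marker Ccr7, a lymph node homing receptor, was found in 8.64% ± 5.52 and 8.63% ± 3.14. The label of effector cells thus held for most of them, with a mixture of Th1, NKT, Th17 and other transcripts inside the class.

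Around the threshold of 1 UMI the cells changed gradually. In SAT, Cxcr3 was found in 30.8% of 1149 cells with 0 Cxcr6 UMIs, 72.0% of 279 cells with 1 and 80.3% of 519 cells with at least 2. In VAT the same shares were 27.7% of 1333 cells, 67.6% of 247 and 75.0% of 408. Ccr7 went the other way, from 47.2% to 15.1% and 6.36% in SAT and from 51.9% to 12.1% and 6.86% in VAT. These shares describe the choice of cells and carry no test.

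Cxcr6 cells made up 57.6% (exact 95% interval 51.1 to 63.8), 45.3% (38.9 to 51.8), 30.9% (27.4 to 34.5) and 43.4% (39.9 to 47.0) of the conventional T cells of SAT. In VAT they made up 48.4% (42.7 to 54.1), 45.2% (39.0 to 51.6), 23.6% (20.8 to 26.7) and 32.7% (28.9 to 36.6). Means were 44.3% ± 10.9 in SAT and 37.5% ± 11.5 in VAT (SD), and the ranges overlapped. The difference of 6.78 percentage points was 4.60 in experiment 1 and 8.97 in experiment 2 and was not larger than the spread (exact permutation test within experiments, 2-sided, p = 0.278, where the smallest p this design allows is 0.0556). With the hashtag margin of 4 the difference was 0.715 points, and in experiment 1 it was -2.51. Without the weakly tagged SAT replicate 1 it was 3.71 points, and in experiment 1 it was -1.55. The direction in experiment 1 thus depended on that sample and on the margin. BAT had 6.24 to 12.8% and spleen 3.06 to 6.53%, below every sample of SAT and VAT. A Cxcr6 UMI was found in 0 of 11 and 0 of 13 B cells of the 2 experiments (median depths 4759 and 3938 UMIs), which allows shares of up to 28.5% and 24.7%. So few B cells set no useful limit for the low shares of BAT and spleen.

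Cells with a UMI of Klrb1c, the NK receptor NK1.1 that marks NKT cells in this strain, were 4.96%, 7.27%, 9.91% and 7.76% of SAT Cxcr6 cells and 4.67%, 1.75%, 8.67% and 5.64% of VAT Cxcr6 cells. Means were 7.48% ± 2.03 and 5.18% ± 2.85, with ranges that overlapped. The difference of 2.29 percentage points did not exceed the spread (exact permutation test within experiments, 2-sided, p = 0.167). Counts behind these shares were small, 62 cells of 798 in SAT and 37 of 655 in VAT, and 51 and 28 of these cells also had a Cxcr3 UMI. Intervals and detection limits here cover counting error alone.

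**Figure D1:**
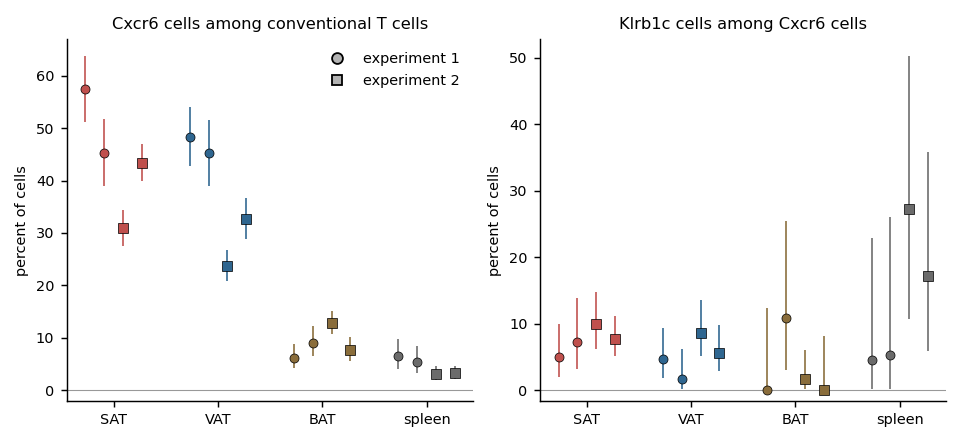
Share of Cxcr6 cells among conventional T cells (left) and share of Klrb1c cells among Cxcr6 cells (right), in percent of cells, by tissue. Each point is 1 hashed sample with its exact 95% interval, circles for experiment 1 and squares for experiment 2. SAT (30.9 to 57.6%) and VAT (23.6 to 48.4%) overlap on the left, and both lie above BAT and spleen.

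Between the depots, Cxcr6 cells of SAT had more transcripts of granzyme B, the chemokines Xcl1 and Cxcl10, the NK-type receptor Cd160 and a broad set of interferon response genes. Those of VAT had more of the leukotriene B4 receptor Ltb4r1, the IL-33 receptor Il1rl1, the Th17-associated genes Tmem176a and Tmem176b, the chaperone Hspa1a and the cold-inducible genes Rbm3 and Cirbp. Cxcl10, whose groups overlapped, and Il1rl1 were not called by a second method, DESeq2. Il1rl1 also lost its call with the hashtag margin of 4. Counts were summed per hashed sample and tested with edgeR's quasi-likelihood test with the experiment as a term, and a gene was called at a Benjamini-Hochberg adjusted p under 0.05. Of 7749 genes tested, 321 were called (4.14%), 189 higher in SAT (2.44%) and 132 lower (1.7%). Over all 7749, the log2 fold change of SAT over VAT had a median of -0.01. Of the called genes, 128 had the 4 SAT samples above the 4 VAT samples and 53 the reverse, against 454 genes with groups that did not overlap among all tested. Without SAT replicate 1 the count was 192, and 321 of the 321 genes kept their direction. It was also 192 without SAT replicate 4 and 212 without VAT replicate 4. Without SAT replicate 1 the log2 fold change was 1.96 for Xcl1, 1.54 for Cd160, 1.40 for Isg15 and 1.84 for Ifit1. On the lower side it was -2.53 for Ltb4r1, -2.19 for Il1rl1, -1.60 for Tmem176b, -1.48 for Hspa1a, -0.91 for Rbm3 and -0.93 for Cirbp, and each of these 10 genes kept its call. Of 92 called genes that are named or belong to a list, 30 were not called by DESeq2, and 40 of the 89 tested were not called with the hashtag margin of 4. Not all losses at that margin are repeated below. They include Irf1 (log2 fold change 0.32), Il21r (0.52), Ltb (0.25), Anxa2 (0.32), Gpr183 (-0.58), Klf7 (-1.20), Ikzf3 (0.44), Tnfsf10 (0.57) and Nfkbia (0.36). Levels below are in CPM, a gene's UMI count scaled to the same total in each sample, of a sample's Cxcr6 cells, and fold changes are log2 values with their standard error (SE). Coordinates are those of GENCODE vM21 on mm10. Counts of called list members below stand beside the share of 4.14% over all genes. The lists were chosen with earlier results of these data known.

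**Figure D2:**
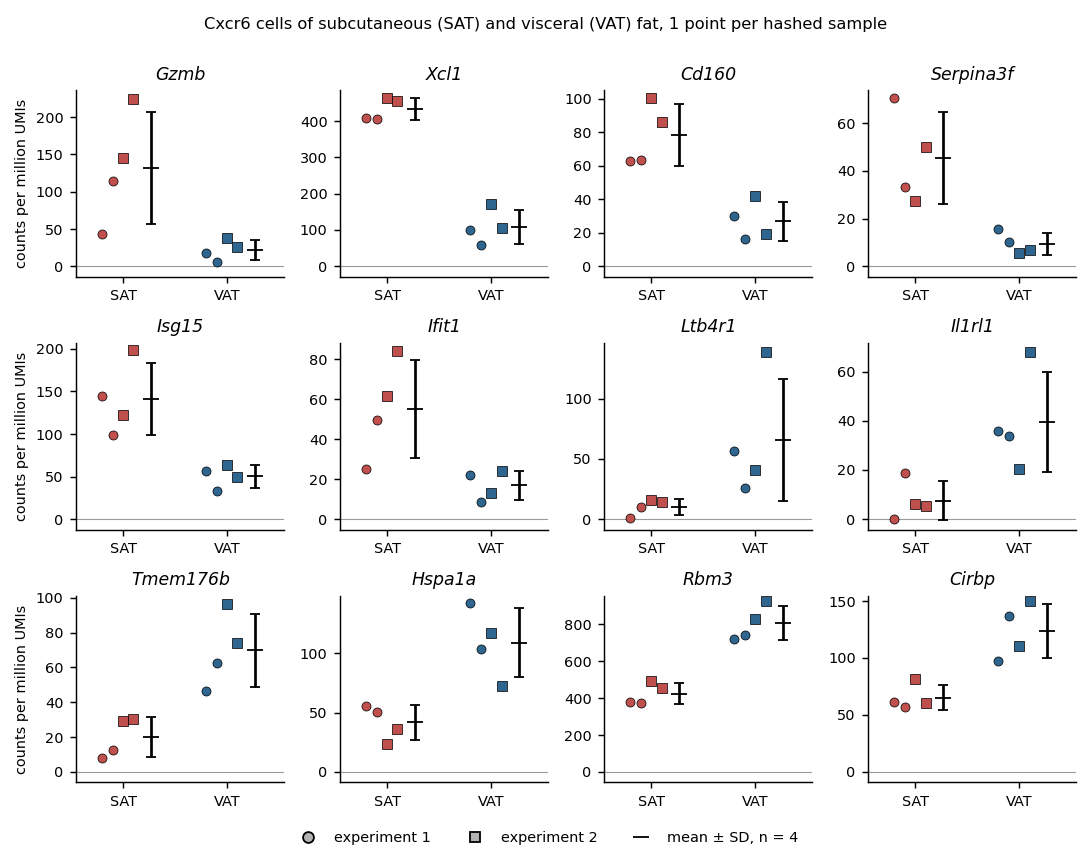
Level of 12 genes in Cxcr6 cells of SAT and VAT, in CPM on linear axes, with 1 point per hashed sample (circles, experiment 1; squares, experiment 2) and the mean with its SD beside them. In each of the 12 panels the 4 samples of 1 tissue lie above the 4 of the other.

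Some NK-type and cytotoxic genes were among those most raised in SAT. Gzmb (granzyme B, a protease of cytotoxic granules; chr14:56258838-56262260, protein coding) stood at 43.5, 114, 145 and 225 CPM in SAT and at 18.2, 6.24, 37.5 and 25.9 CPM in VAT. The lowest SAT sample was replicate 1, still above the highest VAT sample, and the groups did not overlap. The log2 fold change was 2.55 ± 0.25 (adjusted p = 1.16e-06), and 2.74 without SAT replicate 1. In cells, a Gzmb UMI was found in 17.8% ± 4.49 of SAT and 4.97% ± 1.31 of VAT Cxcr6 cells.

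Xcl1 (a chemokine that attracts cross-presenting dendritic cells; chr1:164931644-164935527, protein coding) stood at 407, 405, 464 and 455 CPM in SAT and at 99.0, 58.6, 173 and 105 CPM in VAT. The SAT samples lay close together, all above VAT. The log2 fold change was 1.99 ± 0.13 (adjusted p = 3.24e-09), with 1.85 to 2.24 when each sample was left out in turn. An Xcl1 UMI was found in 38.6% ± 2.40 of SAT and 21.2% ± 2.88 of VAT Cxcr6 cells. Cd160 (a receptor of NK, NKT and cytotoxic T cells; chr3:96798763-96829351, protein coding) stood at 62.8, 63.2, 101 and 86.0 CPM in SAT against 30.1, 16.2, 41.8 and 19.2 CPM in VAT. Its groups did not overlap either, and the log2 fold change was 1.51 ± 0.19 (adjusted p = 2.22e-05).

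Fcer1g, the signalling chain shared by Fc receptors and several NK receptors, stood at 11.6, 40.9, 89.2 and 130 CPM in SAT and at 0.792, 2.49, 21.5 and 30.7 CPM in VAT. Within each experiment both SAT samples lay above both VAT samples, while across experiments the groups overlapped, and the log2 fold change was 2.32 ± 0.29 (adjusted p = 2.22e-05). Klrb1c itself was higher in SAT by 1.18 ± 0.28 (adjusted p = 0.0148), a call lost without SAT replicate 1 (1.10), SAT replicate 3 (1.05) or VAT replicate 4 (0.97). Of 10 tested members of a list of NK receptors and NKT genes, 6 were called higher in SAT and 0 lower, with a median log2 fold change of 1.15. The other called members were Il2rb, the beta chain of the IL-2 and IL-15 receptors, and Klrg1, a receptor of late effector cells. Other NKT markers varied. A UMI of the CD94 chain gene Klrd1 was found in 3.89% ± 1.20 of SAT and 7.25% ± 0.963 of VAT Cxcr6 cells. For Klrk1 the shares were 10.1% ± 1.73 and 10.4% ± 1.73, and for Zbtb16 3.90% ± 1.05 and 2.13% ± 0.942. Of 7 cytotoxic granule genes tested, Gzmb, Ctsw and Ctsd were called higher and 0 lower. Ctsd, a lysosomal protease, lost its call without SAT replicate 4 (0.32), VAT replicate 1 (0.30) or VAT replicate 4 (0.31) and under DESeq2 (0.34). Gzma, at 0 to 9.23 CPM in SAT and 1.07 to 26.9 CPM in VAT, was too rare to be tested. Gzmk, a granzyme of other effector cells, ran the other way, at 0.966, 3.72, 6.18 and 4.62 CPM in SAT and at 7.92, 11.2, 17.2 and 25.9 CPM in VAT, with no overlap. It was too low to be tested with all 8 samples and was called lower in SAT without SAT replicate 1 and in experiment 2 alone. A Gzmk UMI was found in 2.09% ± 0.976 of SAT and 5.95% ± 2.00 of VAT Cxcr6 cells.

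Leaving out the Klrb1c cells changed little of this. Of 7633 genes tested in the 736 SAT and 618 VAT cells without Klrb1c, 294 were called (3.85%), 181 higher in SAT (2.37%) and 113 lower (1.48%). The 275 genes called in both fits all had the same direction and made up 85.7% of the calls with all cells and 93.5% of those without Klrb1c, and the fits share most cells. Gzmb stayed at 2.46 (adjusted p = 5.05e-06), Xcl1 at 2.00 (7.70e-10) and Cd160 at 1.63 (5.85e-05) on the log2 scale. Sulf2, a sulfatase of heparan sulfate, had a log2 fold change of 1.73 in this fit and 1.26 in all Cxcr6 cells, where its call was lost without SAT replicate 1 (1.11) or VAT replicate 4 (1.03) and under DESeq2 (1.25). Klrd1, a chain of the CD94 receptor, was called lower in SAT here. Without SAT replicate 1, 179 genes were called in this fit, without SAT replicate 4 169, and without VAT replicate 4 173.

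Fcer1g was too low to be tested without the Klrb1c cells. These held 51.9% of the 372 Fcer1g UMIs of SAT and 69.1% of the 55 of VAT, against 27.4% and 24.7% of the Xcl1 UMIs. The cells left held 3, 19, 40 and 117 Fcer1g UMIs in SAT replicates 1 to 4 and 1, 2, 4 and 10 in VAT. Within each experiment both SAT samples still had more of them than both VAT samples. When cells with a UMI of Klrb1c, Zbtb16, Cd160, Klrd1 or Klrk1 were all removed, 130 of 6718 genes were called, 82 higher and 48 lower. Of the 294 calls, 275 could be tested there, 275 kept their direction and 124 kept their call. Gzmb (3.09) and Xcl1 (1.40) were among them. The gamma chain constant genes Trgc2 and Trgc4, named after their values were seen, were called higher in SAT with log2 fold changes of 1.53 ± 0.23 and 1.93 ± 0.29, while Trdc was rare in both depots (above). Klrb1c cells held 20.9% of the Trgc2 UMIs of SAT and 24.6% of those of VAT. The part of NKT or gamma-delta cells in the differences of the whole class was not tested beyond these removals.

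Most tested members of the interferon response list were higher in SAT. Of 19 tested members of the list, 16 were called higher in SAT and 0 lower, against 4.14% of all genes called. The median log2 fold change was 0.79 against -0.01 over all genes. This list was chosen with earlier results of these data known, so the count describes its members and is no test of the list. Their summed level was 3601, 3376, 3870 and 4929 CPM in SAT and 2483, 2452, 2783 and 3166 CPM in VAT, so that each SAT sample lay above each VAT sample. Isg15 (a ubiquitin-like protein attached to targets in interferon-treated cells) stood at 145, 99.1, 123 and 198 CPM in SAT and at 56.2, 32.4, 63.3 and 48.9 CPM in VAT. All 4 SAT samples were above all 4 VAT samples, and the log2 fold change was 1.49 ± 0.17 (adjusted p = 7.34e-06).

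Ifit1 (an RNA-binding interferon effector; chr19:34640871-34650009, protein coding) stood at 25.1, 49.5, 61.8 and 84.2 CPM in SAT and at 22.2, 8.73, 12.9 and 24.0 CPM in VAT. SAT replicate 1 lay just above the highest VAT sample, and the log2 fold change was 1.62 ± 0.25 (adjusted p = 0.000338).

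Other called members were the GTPases Iigp1 (1.49 ± 0.22), Igtp (0.82 ± 0.13), Irgm1 (0.66 ± 0.15), Gbp4 (0.66 ± 0.11) and Gbp7 (0.39 ± 0.10), which act against intracellular microbes. The transcription factors Irf7 (0.98 ± 0.18) and Irf1 (0.51 ± 0.09) were higher too, as were the nucleic acid sensor Zbp1 (0.77 ± 0.14) and Bst2 (0.96 ± 0.15), which tethers viral particles. Usp18 (1.10 ± 0.27) removes ISG15, and Ifit3 (1.49 ± 0.29), Rtp4 (0.79 ± 0.18) and Ifi27l2a (0.50 ± 0.10) were called as well. Ifit3 shares reads with its near-identical copy Ifit3b, which makes its level uncertain, and lost its call without SAT replicate 4 (1.12). Irgm1 lost its call without SAT replicate 1 (0.61), SAT replicate 4 (0.53) or VAT replicate 4 (0.58), and Rtp4 without SAT replicate 4 (0.73) or VAT replicate 4 (0.64). Usp18 lost it without SAT replicate 4 (0.95), VAT replicate 1 (1.05), VAT replicate 3 (1.01) or VAT replicate 4 (1.06), and Gbp7 without SAT replicate 4 (0.35) or VAT replicate 3 (0.36). DESeq2 called 11 of the 19, and Irgm1, Rtp4, Usp18, Gbp7 and Ifi27l2a were not among them. Gbp2 (0.68), Ly6a (0.27) and Ly6e (0.17) had positive values that did not pass the test. Outside the list, the GTPase Gbp6 (1.88 ± 0.31) and Serpina3f (2.26 ± 0.29), a serine protease inhibitor, were among the genes that differed most. Serpina3f stood at 70.5, 33.4, 27.4 and 50.2 CPM in SAT and at 15.8, 9.98, 5.36 and 6.72 CPM in VAT.

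The interferon count was 15 without Klrb1c cells, 15 without SAT replicate 1, 11 with cells of any of the 5 NKT markers removed, and 11 of 18 tested in the cells that also had a Cxcr3 UMI. It was 6 in experiment 1 alone and 11 in experiment 2 alone, with 19 of 19 values positive in both. Cxcl10, a ligand of CXCR3 that interferon-gamma induces, was at 29.9, 84.2, 24.7 and 7.50 CPM in SAT and at 9.50, 1.25, 0 and 4.80 CPM in VAT. The groups overlapped, since SAT replicate 4 lay below VAT replicate 1, and the log2 fold change was 2.94 ± 0.50 (adjusted p = 0.000836), with a range of 2.35 to 3.54 when samples other than SAT replicate 3 were left out in turn. Without SAT replicate 3 Cxcl10 was too low to be tested, and DESeq2 did not call it (3.05, adjusted p = 0.0596).

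**Figure D3:**
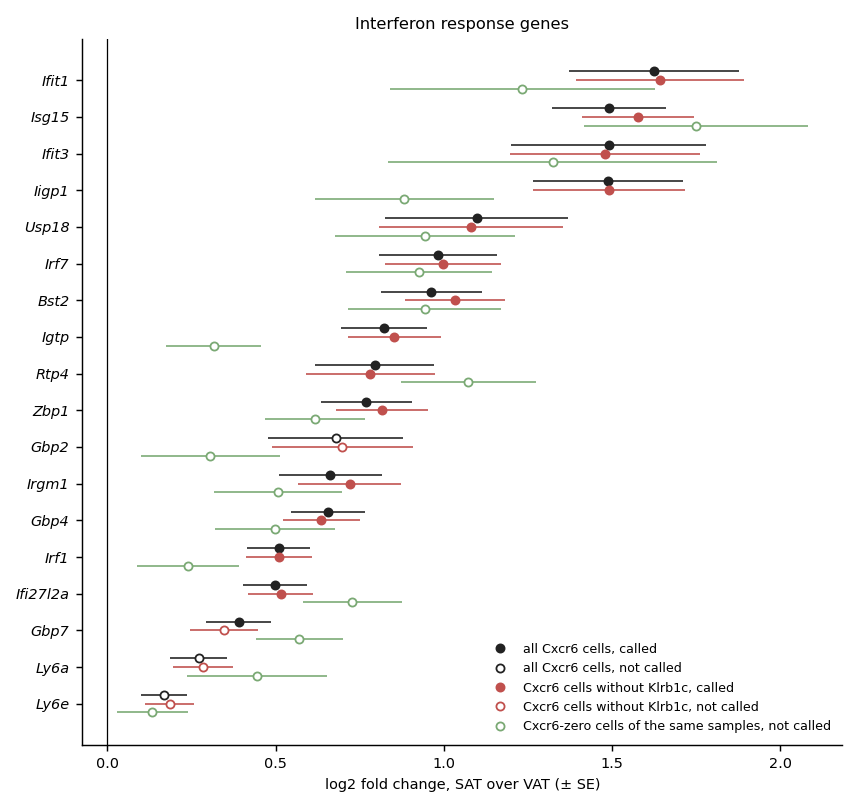
Log2 fold change of SAT over VAT (± SE) for 18 of the 19 tested interferon response genes, in all Cxcr6 cells, in Cxcr6 cells without Klrb1c and in the Cxcr6-zero conventional T cells of the same samples. Filled points passed the test. The 18 genes drawn have positive values in the 3 sets, with 15, 14 and 0 of them called.

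Promoters of interferon-induced genes carry the interferon-stimulated response element, where interferon regulatory factors bind. RefSeq promoter sequences (GRCm38.p6, 250 bases before to 50 after the start) were found for 9 of the 16 called interferon genes. Its core, GAAA, any 2 bases and GAAA again, searched on both strands, was in 7 of the 9 (Bst2, Gbp7, Ifit1, Ifit3, Igtp, Irgm1 and Isg15) and in 3.49% of 27025 promoters of the same length. The motif TTCNNNGAA of the gamma-interferon activation site was in 4 of the 9 and in 8.47% of all. Over the whole interferon list the response element core was in 8 of the 11 promoters found, among them that of the uncalled Gbp2. The list is made of interferon response genes, so these matches describe the list and not the difference between the depots. A match is a description of letters, not evidence of binding in these cells. The promoters of 2 genes with large differences are shown with the matches in capitals, overlapping matches merged: Isg15 at chr4:156200769-156201068 (minus strand, 3 overlapping matches) and Ifit1 at chr19:34640639-34640938 (plus strand, 2 matches, whose letters lie on the opposite strand).
Isg15: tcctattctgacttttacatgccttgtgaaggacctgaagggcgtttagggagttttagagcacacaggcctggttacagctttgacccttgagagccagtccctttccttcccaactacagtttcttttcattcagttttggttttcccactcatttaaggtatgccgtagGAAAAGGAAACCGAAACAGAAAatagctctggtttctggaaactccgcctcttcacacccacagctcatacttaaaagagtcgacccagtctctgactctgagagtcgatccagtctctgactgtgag
Ifit1: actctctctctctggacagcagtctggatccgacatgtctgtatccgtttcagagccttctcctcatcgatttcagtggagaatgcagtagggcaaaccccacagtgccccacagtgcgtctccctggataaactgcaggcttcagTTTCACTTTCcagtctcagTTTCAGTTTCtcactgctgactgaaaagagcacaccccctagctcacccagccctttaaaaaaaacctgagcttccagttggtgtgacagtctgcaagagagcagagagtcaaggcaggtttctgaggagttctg

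Among Th1 genes the depots differed in a few members. Ifng stood at 366, 263, 359 and 377 CPM in SAT and at 190, 253, 339 and 151 CPM in VAT. SAT replicate 2 lay within the VAT range, so the groups overlapped. The log2 fold change was 0.57 ± 0.15 (adjusted p = 0.0306), and the call was lost without SAT replicate 1 (0.49), SAT replicate 3 (0.59), SAT replicate 4 (0.55), VAT replicate 1 (0.51) or VAT replicate 4 (0.36). The other called members of 13 tested were Il12rb2, the inducible chain of the IL-12 receptor (1.39 ± 0.31), and Nkg7 (0.42 ± 0.08) on the higher side, and Il18r1, the IL-18 receptor chain (-0.47 ± 0.13), on the lower. Il12rb2 lost its call without SAT replicate 4 (1.11) or VAT replicate 3 (1.13), and Il18r1 with 6 of the 8 samples left out in turn. DESeq2 called neither Ifng (0.55) nor Il18r1 (-0.46). The defining genes Tbx21 (0.22 ± 0.13), Cxcr3 (0.12 ± 0.07) and Ccl5 (0.15 ± 0.09) did not pass the test, and neither did Tnf (-0.12 ± 0.11) and Il2 (0.16 ± 0.12).

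Of 14 cytokines and TNF-family ligands tested, 4 were called higher and 1 lower. Tnfsf10, the death ligand TRAIL, stood at 92.7, 80.5, 73.3 and 83.1 CPM in SAT and at 53.8, 38.7, 51.5 and 53.7 CPM in VAT, with no overlap and a log2 fold change of 0.72 ± 0.13. Ltb (lymphotoxin beta, 0.34 ± 0.07) and Tnfsf14 (LIGHT, 0.60 ± 0.16) were the others beside Ifng. Tnfsf14 lost its call without any 1 of the 8 samples (0.54 to 0.67) and under DESeq2 (0.61). Tnfsf11, the ligand RANKL, was lower in SAT (-0.96 ± 0.25), a call lost without SAT replicate 1 (-0.80), SAT replicate 3 (-0.86), SAT replicate 4 (-0.98), VAT replicate 1 (-0.97) or VAT replicate 4 (-0.75) and under DESeq2. In the cells that also had a Cxcr3 UMI Tnfsf11 turned to 0.0923. Of 4 chemokines tested, Xcl1 and Cxcl10 were called, while Ccl4 (1.06 ± 0.39) was not.

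Genes higher in VAT were led by 2 receptors. Ltb4r1 (a receptor that draws leukocytes towards leukotriene B4; chr14:55765962-55768494, protein coding) stood at 0.966, 9.91, 15.9 and 13.8 CPM in SAT and at 56.2, 26.2, 40.8 and 139 CPM in VAT. The groups did not overlap, VAT replicate 4 was the highest, and the log2 fold change was -2.75 ± 0.37 (adjusted p = 5.04e-05). Il1rl1 (the ST2 receptor of IL-33, found on Th2 cells and on many Treg cells of visceral fat; chr1:40429570-40465415, protein coding) stood at 0, 18.6, 6.18 and 5.19 CPM in SAT and at 35.6, 33.7, 20.4 and 68.1 CPM in VAT. No SAT sample reached a VAT sample, and the log2 fold change was -2.58 ± 0.44 (adjusted p = 0.000806). It was -3.38 without SAT replicate 2 and -1.97 without VAT replicate 4, and Il1rl1 was not called by DESeq2 (-2.45, adjusted p = 0.267) or with the hashtag margin of 4 (-1.56). Il1rl1 was found in few cells, 1.41% ± 1.12 in SAT and 7.99% ± 2.79 in VAT. Treg cells were left out only by the lack of Foxp3 and Ikzf2 UMIs, so those with neither transcript captured may remain in the class. Their part in the values of Il1rl1 and of the Treg-associated genes below was not tested. The other Th2 genes tested, Gata3 (-0.28 ± 0.13) and Il9r (-1.18 ± 0.38), did not pass the test.

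Of 6 Th17-associated genes tested, 4 were called lower in SAT and 0 higher, with a median log2 fold change of -0.86. Tmem176b (an ion channel protein of the membrane, high in Th17 cells; chr6:48833818-48841496, protein coding) stood at 7.72, 12.4, 29.1 and 30.6 CPM in SAT and at 46.7, 62.4, 96.5 and 73.9 CPM in VAT. The groups did not overlap, and the log2 fold change was -1.76 ± 0.19 (adjusted p = 4.71e-06). Its neighbour Tmem176a followed with -1.69 ± 0.18. The 2 genes overlap on opposite strands, so without a stated strand setting their counts may share reads. Tmem176b was found in 4.40% ± 1.01 of SAT and 12.7% ± 0.974 of VAT Cxcr6 cells.

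Rora, a nuclear receptor of Th17 and innate-like cells, was lower by less (-0.48 ± 0.13) and lost its call with 6 of the 8 samples left out in turn and under DESeq2. Serpinb1a, a protease inhibitor, was lower too (-1.25 ± 0.30), a call lost without SAT replicate 1 (-1.23), SAT replicate 3 (-1.12), VAT replicate 2 (-1.09) or VAT replicate 4 (-1.08). The Th17 receptor gene Ccr6 and the cytokine Il17a were too rare to be tested, and Il17a was at 0 CPM in 6 of the 8 samples.

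Other genes lower in SAT were Ecm1 (a secreted matrix protein, -1.68 ± 0.39), the kinase Adpgk (-1.32 ± 0.30), the transcription factor Klf7 (-1.28 ± 0.24), Ly6c1 (-1.11 ± 0.29), a surface marker of memory and circulating cells, and the lipid enzyme Gpat4 (-0.93 ± 0.26). Ecm1 depended on VAT replicate 4, which had 46.0 CPM against 11.8 to 12.5 in the other VAT samples. Without VAT replicate 4 its value was -0.85 (adjusted p = 0.313), and without SAT replicate 4 -1.54 (0.0839). Adpgk lost its call without SAT replicate 1 (-1.09) or VAT replicate 4 (-1.23). DESeq2 did not call Ecm1, Adpgk, Ly6c1 or Gpat4. Gpat4 lost it with 7 of the 8 samples left out in turn, and Ly6c1 without SAT replicate 1 (-0.91), SAT replicate 3 (-1.09), VAT replicate 1 (-0.88) or VAT replicate 4 (-1.06). Higher in SAT beside the genes above were Ccdc136 (1.88 ± 0.21), a coiled-coil protein, and Nav2 (1.71 ± 0.26), a protein of the microtubule cytoskeleton, both with groups that did not overlap.

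A few genes of tissue residency were higher in SAT and a few of recirculation lower, while most members of both lists did not pass the test. Itga1, the collagen-binding integrin CD49a of resident T cells, stood at 123, 100, 90.9 and 106 CPM in SAT and at 74.4, 77.3, 59.0 and 50.8 CPM in VAT. The groups did not overlap, and the log2 fold change was 0.71 ± 0.12 (adjusted p = 0.000718). Of 15 residency genes tested, 4 were called higher and 0 lower: Itga1, the phosphatase Dusp6 (0.62 ± 0.12), Litaf (1.01 ± 0.23), an endosomal regulator, and Id2 (0.29 ± 0.07), an inhibitor of E proteins. Id2 lost its call without SAT replicate 1 (0.26), SAT replicate 4 (0.24) or VAT replicate 4 (0.26), and Litaf without SAT replicate 4 (0.96) and under DESeq2 (1.02). The median over the 15 was 0.12. Cd69, which holds T cells in tissue, did not pass the test (-0.19 ± 0.11), and Itgae, the CD103 chain, was at 0 CPM in 6 of the 8 samples.

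S1pr1, the receptor that lets T cells leave tissue, stood at 83.0, 139, 101 and 60.6 CPM in SAT and at 143, 151, 163 and 154 CPM in VAT. SAT was lower throughout, with a log2 fold change of -0.74 ± 0.15 (adjusted p = 0.00494). Its activator Klf2 stood at 127, 258, 335 and 226 CPM in SAT and at 322, 354, 460 and 453 CPM in VAT, where SAT replicate 3 overlapped VAT replicate 1. The log2 fold change was -0.78 ± 0.13 (adjusted p = 0.000908), and DESeq2 did not call Klf2 (-0.76, adjusted p = 0.0976). Of 14 naive and recirculation genes tested, 4 were called lower and 0 higher, with a median of -0.39, and the rest of the calls were Ly6c1 and S1pr4. DESeq2 called S1pr1 alone in this list. The naive genes Ccr7 (0.29 ± 0.28), Lef1 (-0.25 ± 0.13) and Tcf7 (-0.26 ± 0.08) did not pass the test.

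Among 13 chemokine and lipid receptors of migration, 1 was called higher in SAT and 5 lower. The oxysterol receptor Gpr183 (-0.61 ± 0.13) and the monocyte chemokine receptor gene Ccr2 (-0.49 ± 0.11) were lower, beside Ltb4r1, S1pr1 and S1pr4. Ccr2 lost its call without SAT replicate 1 (-0.43) or VAT replicate 1 (-0.33), and S1pr4 without SAT replicate 1 (-0.46), SAT replicate 3 (-0.35), VAT replicate 1 (-0.43) or VAT replicate 4 (-0.39). Integrins were divided: Itgb2 (0.37 ± 0.09) was higher with Itga1, Itga4 (-0.37 ± 0.09) was lower, and Itgb2 lost its call with 6 and Itga4 with 4 of the 8 samples left out in turn. DESeq2 did not call S1pr4 or Itgb2.

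Stress genes also went both ways. Hspa1a (the inducible HSP70 chaperone; chr17:34969190-34972156, protein coding) stood at 56.0, 50.8, 23.8 and 36.3 CPM in SAT and at 143, 104, 117 and 72.9 CPM in VAT. The groups did not overlap, and the log2 fold change was -1.40 ± 0.17 (adjusted p = 1.22e-05). Its near-identical neighbour Hspa1b was lower as well (-0.85 ± 0.14), and how reads were split between them is uncertain. Of 11 heat shock genes tested, 5 others were called higher in SAT: Hspa8 (0.40 ± 0.07), Dnaja1 (0.42 ± 0.08), Hsp90ab1 (0.34 ± 0.08), Hspa5 (0.37 ± 0.08) and Hsph1 (0.65 ± 0.15), which encode constitutive HSP70, its partner, HSP90, the chaperone of the endoplasmic reticulum and an exchange factor. With the hashtag margin of 4 Hspa8 alone of these was called, and in experiment 1 alone 0 of them were called by edgeR, while Hspa1a and Hspa1b were called in both. Hsp90ab1 lost its call without SAT replicate 4 (0.22), VAT replicate 2 (0.30), VAT replicate 3 (0.33) or VAT replicate 4 (0.29) and under DESeq2 (0.33). Hsph1 lost it without SAT replicate 4 (0.55), VAT replicate 3 (0.62) or VAT replicate 4 (0.48), and Hspa5 without VAT replicate 4 (0.30). Heat shock factor binds inverted repeats that contain GAANNTTC. These letters were in 7.95% of all promoters, in the promoters of Hspa1a and Hspa1b, and in those of Dnaja1 and Hsph1 among the 3 genes called higher that have a RefSeq promoter. The promoter of Hspa1a, at chr17:34972107-34972406 on the minus strand, is shown with its match in capitals.
Hspa1a: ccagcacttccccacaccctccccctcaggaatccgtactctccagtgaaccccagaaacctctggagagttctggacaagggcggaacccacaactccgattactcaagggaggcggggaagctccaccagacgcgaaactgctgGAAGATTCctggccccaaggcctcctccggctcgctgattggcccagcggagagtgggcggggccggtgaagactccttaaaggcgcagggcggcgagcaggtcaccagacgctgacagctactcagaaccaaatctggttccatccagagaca

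Of 4 cold-inducible RNA-binding genes tested, 2 were called lower in SAT, Rbm3 and Cirbp, and Srsf5 (-0.19 ± 0.08) and Srsf2 (0.03 ± 0.09) did not pass the test. Rbm3 (chrX:8138975-8145880, protein coding) stood at 380, 372, 493 and 455 CPM in SAT and at 723, 745, 827 and 926 CPM in VAT. Cirbp (chr10:80165985-80172786, protein coding) stood at 61.8, 57.0, 81.2 and 60.6 CPM in SAT and at 97.4, 137, 110 and 150 CPM in VAT. Neither gene overlapped between the depots, and the log2 fold changes were -0.92 ± 0.06 (adjusted p = 4.24e-09) for Rbm3 and -0.92 ± 0.13 (adjusted p = 0.000162) for Cirbp. Both encode proteins whose transcripts increase when cells are cooled. BAT had 254 to 435 CPM of Rbm3 and 44.4 to 74.3 CPM of Cirbp, and spleen 238 to 391 and 35.3 to 57.2, all below the VAT values above. These BAT and spleen values were scaled over all 4 tissues and those of SAT and VAT over these alone, so the comparison is rough. BAT and spleen sums came from 22 to 117 cells per sample, and the spleen sample with 19 cells was not used. Their levels carry no test here.

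**Figure D4:**
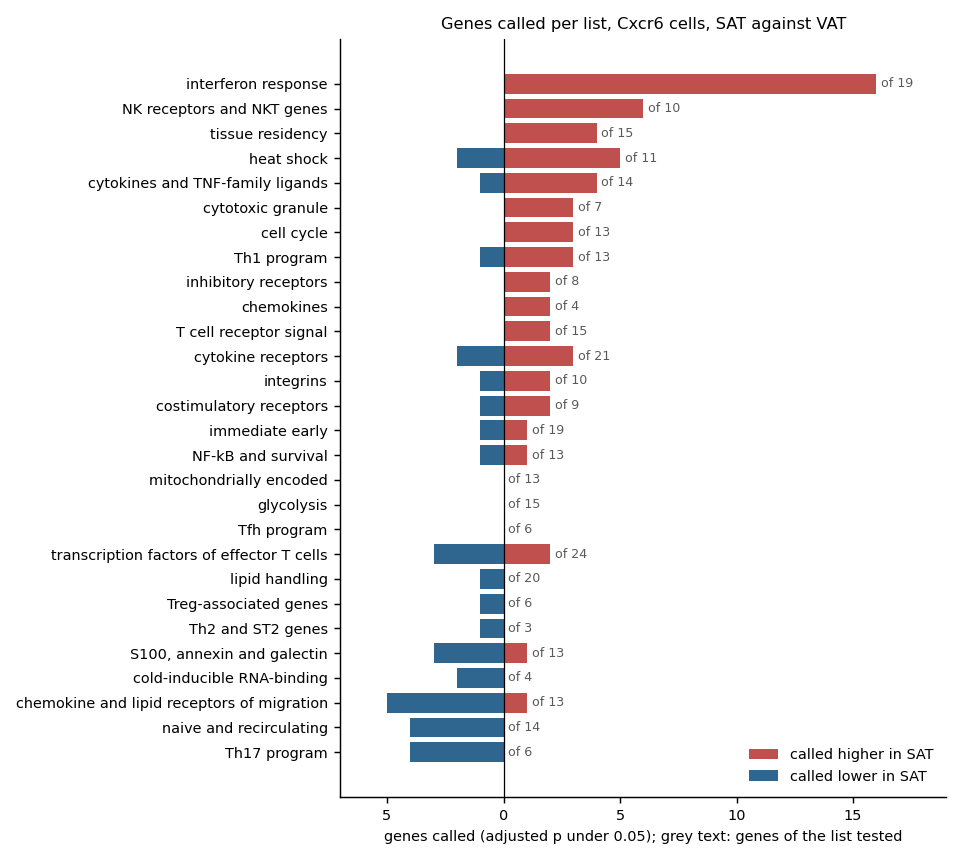
Number of genes called higher (right) and lower (left) in SAT than in VAT for each gene list, in Cxcr6 cells, with the number of tested members in grey. The interferon list has the most calls, 16 of 19, all on the higher side. Over all genes tested 4.14% were called, and the lists were chosen with earlier results of these data known.

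Metabolic lists had few calls. Over all genes tested 4.14% were called, and lists this short cannot be told apart from that share. Of 20 lipid handling genes tested, 1 was called, Fabp5, a fatty acid binding protein (-0.65 ± 0.18), and its call was lost with 6 of the 8 samples left out in turn and under DESeq2. Of 15 glycolysis genes and 13 mitochondrially encoded genes tested, 0 were called by edgeR, with medians of -0.08 and 0.04. Of 13 cell cycle genes tested, 3 were called higher in SAT and 13 had positive values, with a median of 0.45: Hmgb2 (0.36 ± 0.06), Stmn1 (0.61 ± 0.15) and Tyms (0.67 ± 0.17). With the hashtag margin of 4, 0 of 12 were called by edgeR, 5 had positive values and the median was -0.05, and Hmgb2 (-0.0401) and Stmn1 (-0.0597) changed direction. DESeq2 called Hmgb2 alone. Stmn1 lost its call without SAT replicate 1 (0.48), VAT replicate 2 (0.49) or VAT replicate 3 (0.50), and Tyms without SAT replicate 1 (0.55), SAT replicate 4 (0.61), VAT replicate 2 (0.57) or VAT replicate 3 (0.66). The marker of proliferation Mki67 did not pass the test (0.35 ± 0.16).

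Signalling and survival genes gave scattered calls. Over all genes tested 4.14% were called, and lists with so few calls cannot be told apart from that share. Of 19 immediate early genes tested, Gadd45b was called higher (0.72 ± 0.11) and Klf6 lower (-0.59 ± 0.10), both with groups that did not overlap. Of 15 genes of T cell receptor signalling, Nfkbia (0.37 ± 0.07), the NF-kB inhibitor, and Irf8 (1.27 ± 0.28) were called higher, and Irf8 lost its call without SAT replicate 1 (0.84). The pro-apoptotic gene Bcl2l11 was higher (0.80 ± 0.12) and the anti-apoptotic gene Bcl2 lower (-0.40 ± 0.11) in SAT, the latter a call lost with 7 of the 8 samples left out in turn and under DESeq2. Among cytokine receptors Il2rb (0.58 ± 0.07) and Il21r (0.63 ± 0.12) were higher, with no overlap for either. Il2rb stood at 465, 506, 434 and 446 CPM in SAT and at 310, 329, 308 and 293 CPM in VAT.

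Of 8 inhibitory receptors tested, Cd160 and Entpd1 (0.72 ± 0.16), the ectonucleotidase CD39, were called higher, and Entpd1 lost its call without SAT replicate 4 (0.63). Pdcd1, the receptor PD-1, did not pass the test (0.16 ± 0.24), and 0 of 6 Tfh genes tested were called by edgeR. Of 9 costimulatory receptors, Cd226 (0.40 ± 0.08) and Slamf1 (0.47 ± 0.12) were higher and Tnfrsf4, the receptor OX40, lower (-0.93 ± 0.24). Slamf1 lost its call with 6 and Tnfrsf4 with 5 of the 8 samples left out in turn, and both under DESeq2. Of 24 transcription factors, Id2 and Ikzf3 (0.46 ± 0.10) were higher and Klf2, Klf6 and Rora lower. Of 13 S100, annexin and galectin genes, Anxa2 (0.34 ± 0.07) was higher and S100a4 (-0.41 ± 0.07), Vim (-0.38 ± 0.08) and Lgals1 (-0.29 ± 0.07) lower. Vim lost its call without VAT replicate 4 (-0.28), and Lgals1 without SAT replicate 1 (-0.26), SAT replicate 3 (-0.22) or VAT replicate 4 (-0.24). Of 6 Treg-associated genes tested 1 was called, the actin capping gene Capg (-0.70 ± 0.19), a call lost with 6 of the 8 samples left out in turn and under DESeq2, while Il2ra (-1.03 ± 0.31) did not pass the test. Counts of 0 or 1 in 6 genes cannot be told apart from the 4.14% called over all genes.

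The same samples held conventional T cells without a Cxcr6 UMI, which were summed and tested in the same way. There 4 of 8447 genes were called (0.0474%): Xcl1 (2.17), Bcl2 (-0.92), Cirbp (-1.03) and Ecm1 (-2.05), and all 4 were also called in Cxcr6 cells in the same direction. The tissue difference of the Cxcr6 cells was then set against that of the Cxcr6-zero cells in a fit with the hashed sample as block. Of 8511 genes tested, 0 were called (0%) by edgeR, with 277 at an unadjusted p under 0.05. DESeq2 called 0, with 28 at an unadjusted p under 0.05. No difference between the depots was thus shown to be larger or smaller in Cxcr6 cells than in the rest. Of 307 calls of Cxcr6 cells tested in Cxcr6-zero cells, 293 had the same sign there, and the share over all genes was not computed. The Cxcr6-zero class may hold effector cells whose Cxcr6 was not captured. A Cxcr3 UMI was in 30.8% of its SAT cells and 27.7% of its VAT cells. The part of such cells in the likeness of the classes was not tested.

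The values of some leading genes, picked out here after they were seen, lay close together in the classes and those of others did not. Gzmb (1.98), Serpina3f (2.38), Xcl1 (2.17), Ccdc136 (2.12), Cd160 (1.58), Isg15 (1.75) and Ltb4r1 (-3.25) had log2 fold changes in Cxcr6-zero cells of a size like that in Cxcr6 cells. Hspa1a (-0.04), Tmem176a (-0.16), Tmem176b (-0.49), Klf7 (-0.23) and Adpgk (-0.19) had values nearer to 0 there, as had Fcer1g (-0.24), whose sign was opposite to that in Cxcr6 cells. Hspa1a had the smallest adjusted p among these in the test of the difference, 0.514, for a difference of -1.36 ± 0.25. The 19 interferon genes had 19 positive values in Cxcr6-zero cells with a median of 0.62 and 0 calls, and the sums of both classes come from the same samples.

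**Figure D5:**
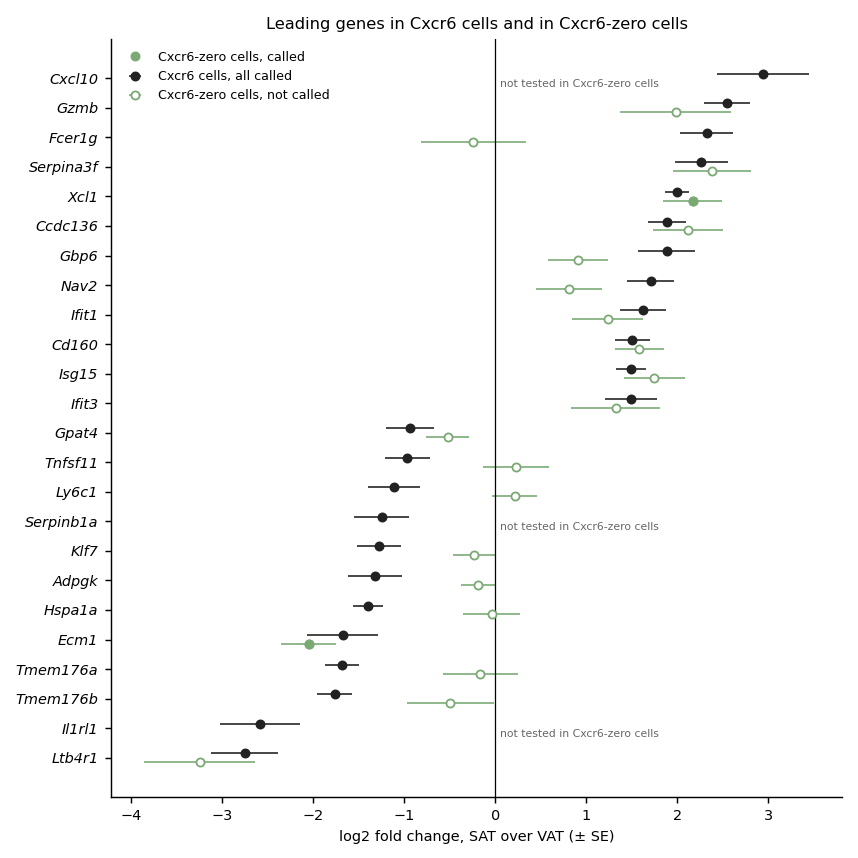
Log2 fold change of SAT over VAT (± SE) for the 24 leading genes in Cxcr6 cells (black, all called) and in Cxcr6-zero conventional T cells of the same samples (green, filled where called). Xcl1 and Ecm1 are the called genes among the green points, and 3 genes were too low to be tested there.

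Transcripts of other cell types were low in sum, but many cells held some. Summed over each marker list, B cell genes gave 126 to 149 CPM in SAT and 127 to 433 CPM in VAT, with VAT replicate 2 the highest. Erythroid genes gave 74.3 to 114 and 44.1 to 283 CPM, with VAT replicate 3 the highest, myeloid genes 6.35 to 22.2 and 4.29 to 12.5 CPM, stromal genes 11.5 to 15.4 and 6.24 to 15.8 CPM, and NK cell genes 0 to 4.41 and 0 to 8.73 CPM. The defining genes Klra8, Cd14, Msln, Upk3b, Krt19, Adipoq and Cfd were at 0 in all 8 samples. With cells that had at least 2 UMIs of B cell, myeloid, stromal or erythroid markers removed, which took out 225 of 798 SAT cells (28.2%) and 221 of 655 VAT cells (33.7%), 259 genes were called. Of 299 earlier calls tested there, 299 kept their direction and 211 their call, and the interferon count was 15 of 19.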

How the data were processed

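RNA and hashtag counts came from 2 droplet libraries of sorted CD4 T cells. The deposited matrices hold raw UMI counts per barcode for 55487 genes, written by Cell Ranger 6.1.0, per the file headers, on build mm10. The submitters' processing notes also name bcl2fastq and Seurat, with no version or setting in the sources used here. How barcodes were filtered before deposit is not given in the sources used here. No doublet caller was run. Each labelled hashtag's count plus 1 was divided by its median in kept cells, and a cell took its top tag at 2 times the next or more, which left 160 and 228 Cxcr6 cells without a sample. Libraries held 29153747 and 43879975 gene UMIs in 4485 and 12239 barcodes, of which 3985 and 9004 were kept.

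Raw counts were summed per hashed sample (at least 20 cells) and tested in R 4.3.3 with edgeR 4.0.16 (TMM, filterByExpr minimum count 10, quasi-likelihood, experiment as term, Benjamini-Hochberg 0.05), without Cxcr6, Foxp3 and Ikzf2. DESeq2 1.42.0 was an alternative. Shares used exact permutation within experiments and Clopper-Pearson intervals (SciPy 1.17.1), in Python 3.11.15 with NumPy 2.4.6, pandas 2.3.3 and Matplotlib 3.10.9. The method was tested on simulated counts. Coordinates are from GENCODE vM21, which held 54349 of the gene IDs, and promoters from RefSeq. Named genes had a call, a mean of at least 20 CPM in the higher tissue and samples separated within both experiments, the 12 with the largest change in each direction (8 without Klrb1c), with up to 4 per list by p and a fixed panel. T cell receptor, immunoglobulin, mitochondrial, pseudogene, unnamed and other-cell-type genes were counted but not ranked. The members and lists were chosen with earlier results of these data known, and the promoters shown were picked after the values were seen. Alternatives were other scaling, filters, cell cutoffs, tag margin, depth, classes of cells, tissues in the fit and left-out samples. Results for a few genes are not reported here, though the counts over lists include them.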

Additional observations from a re-analysis of the deposited data

Results flagged for a closer look

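In 96 groups of 4 samples (genes named in the text, and shares) the sample at an end was compared with the other 3, and 8 groups had a sample far from them, where chance flags about 1 in 20. Ecm1 was at 46.0 CPM in VAT replicate 4, and Tnfsf11 at 37.4 CPM in the same sample, both above the other VAT samples. Ifng was at 262.5 CPM in SAT replicate 2, below the other SAT samples. Gzma was at 26.9 CPM in VAT replicate 1, above the rest of VAT. The remaining flags rest on single samples with few transcripts of a gene that was otherwise at 0: Il17a at 4.41 CPM in SAT replicate 3 and 1.58 CPM in VAT replicate 1, and Itgae at 1.77 CPM in SAT replicate 3 and 1.92 CPM in VAT replicate 4. VAT replicate 4 has 3 of these values, VAT replicate 1 and SAT replicate 3 have 2 each, and SAT replicate 2 has 1.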

How the results depend on the processing

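Depth limits rare genes: sums of 110 to 335 cells left Il17a, Gzma and Gzmk untested in all Cxcr6 cells. For all Cxcr6 cells and for those without Klrb1c, the counts of called genes (321 and 294) became 178 and 159 with DESeq2, 49 and 49 in experiment 1 alone, 154 and 143 in experiment 2 alone, 207 and 176 with all 4 tissues in 1 fit, 146 and 115 with a tag margin of 4, and 61 and 56 when cells were thinned to 1000 UMIs, where 2516 and 2381 genes were tested. Removing cells with any of 5 NKT markers gave 130. Leaving out each sample gave 192 to 395 and 169 to 349. They fell by over 1.5 times without SAT replicate 1 (192 and 179), SAT replicate 4 (192 and 169) or VAT replicate 4 (212 and 173). For the difference between Cxcr6 and Cxcr6-zero cells the count was 0 to 1, with 1 without VAT replicate 2. A replicate block gave 367 and 342. In all Cxcr6 cells, same-numbered samples of SAT and VAT did not deviate together (correlations over genes of 0.007 and -0.077). These values rest on 1 comparison per experiment and cannot tell whether equal numbers mark the same animal. With no TMM scaling 352 and 285 genes were called, and 469 and 437 with no filter on low counts. Of 3322 alternatives with an adjusted p over 147 called results of named genes, 3319 kept the direction and 2566 the call. The exceptions in direction were Hmgb2 (-0.0401) and Stmn1 (-0.0597) with a tag margin of 4 and Tnfsf11 (0.0923) in cells with Cxcr3 alone, and the cause was not tested. The difference in the share of Cxcr6 cells was 3.65 to 9.92 points with each sample left out.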
